A study of Rattus norvegicus with 9 samples.

Results

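The miR-106b/25 cluster and the X-linked cluster of miR-20b and miR-363 are paralogs of miR-17/92a, a microRNA (miRNA) cluster that mammals share. The tables were searched for miR-106b, miR-93, miR-25, miR-20b, miR-363 and miR-92b, whichever arm of the hairpin was named. The search found 10 of 465 mature miRNAs: 6 from miR-106b/25, 3 from the X-linked cluster and miR-92b-3p, which lies alone. Small RNA was sequenced from retinas dissected from wild type Sprague Dawley rats, with 3 libraries in each of 3 groups. They were sham rats aged 14 days (sham P14), rats of the same age whose disease state was oxygen-induced retinopathy (OIR P14) and rats with that state aged 29 days (OIR P29). Oxygen-induced retinopathy (OIR) exposes newborn animals to altered oxygen as a model of the retinal vessel disease of preterm infants. No sham group at day 29 was analysed here, so age and stage of disease cannot be told apart in the later comparison. The labels speak of biological samples in triplicate without saying how many animals went into each, so p-values measure only the spread between these libraries.

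A miRNA guides the silencing complex to messenger RNAs that pair with its seed, the bases at positions 2 to 8. The miR-17 seed is carried by miR-106b-5p, miR-93-5p and miR-20b-5p, which in human and mouse cells lower the cell-cycle inhibitor p21 and are abundant in dividing progenitors. The miR-25/92 seed is carried by miR-25-3p, miR-363-3p and miR-92b-3p. miR-25 is known in human cells to lower the cell-death protein Bim, and miR-92b is known in mouse cortex as a miRNA of neural progenitors. The miR-106b, miR-93 and miR-25 hairpins lie inside Mcm7, a gene for a subunit of the replicative helicase, and are made from its transcript.

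The mature sequences below, from RefSeq's GRCr8 assembly and found for 10 of 10 members, show which miRNAs share a seed. The seed is in capitals. The first 3 lines share the miR-17 seed, the next 3 the miR-25/92 seed, and the last 4 are the opposite arms of their hairpins.
rno-miR-106b-5p: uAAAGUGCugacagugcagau
rno-miR-93-5p: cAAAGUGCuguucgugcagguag
rno-miR-20b-5p: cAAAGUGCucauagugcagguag
rno-miR-25-3p: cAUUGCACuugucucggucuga
rno-miR-363-3p: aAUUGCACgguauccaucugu
rno-miR-92b-3p: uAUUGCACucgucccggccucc
rno-miR-106b-3p: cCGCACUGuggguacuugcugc
rno-miR-93-3p: aCUGCUGAgcuagcacuucccga
rno-miR-25-5p: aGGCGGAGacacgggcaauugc
rno-miR-20b-3p: aCUGCAGUgugagcacuucugg
Each of these 10 comes from 1 place in that assembly. miR-106b-5p lies on the minus strand at chr12:22157103-22157123 and miR-25-3p at chr12:22156652-22156673, with miR-93-5p between them at chr12:22156894-22156916. miR-20b-5p lies at chrX:137343239-137343261, miR-363-3p at chrX:137342788-137342808 and miR-92b-3p at chr2:176931663-176931684, all on the minus strand. The coordinates are those of the reference sequences, since no source used here names the genome build behind the counts.

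The sequences of some relatives are shown next. The counts of miR-17-5p and miR-92a-3p cannot be assigned to 1 cluster. miR-20a-5p is made from Mir20a on chromosome 15 alone and is shown because its sequence is close to that of miR-20b-5p.
miR-17-5p: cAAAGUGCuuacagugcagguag
miR-20a-5p: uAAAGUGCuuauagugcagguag
miR-92a-3p: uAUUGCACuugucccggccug
The mature miR-17-5p is made from 2 hairpins, Mir17 on chromosome 15 and Mir106a on X. Likewise miR-92a-3p is made from Mir92a1 and Mir92a2, and miR-19b-3p, not shown, from Mir19b1 and Mir19b2. Their counts therefore cannot be divided between the chromosome 15 and the X cluster, which miR-20b-5p, miR-20b-3p, miR-363-3p and miR-17-2-3p can represent on their own. Counting from the 5′ end, miR-20b-5p differs from miR-17-5p at 2 of 23 positions (C10U and U12C, the base of miR-20b-5p first). It also differs from miR-20a-5p at 2 (C1U and C10U). miR-92b-3p differs from miR-92a-3p at 2 of the 21 positions they share (C10U and C21G). No source used here states how many mismatches were allowed in counting, so whether reads of these pairs were exchanged is not known. No member had the same counts as another name in 6 or more libraries.

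Total counts were 11808893 to 15260603 per library. The photoreceptor miRNA miR-182 took 59.3% to 68.1% of them and the 10 members together 0.130% to 0.191%. Replicates differed by more than counting noise, with chi-square per degree of freedom of 77.4 to 229. In each group 1 library stood further from the others: library 27 of sham P14 (223 and 229 against 154 between libraries 25 and 51), library 38 of OIR P14 (140 and 122 against 93.4 between libraries 11 and 12) and library 47 of OIR P29 (184 and 107 against 77.4 between libraries 20 and 21). All 10 members had reads in all 9 libraries. Levels are given as CPM, counts scaled to a library of 1e6 after TMM normalization of the 9 libraries together, and log2 folds come from edgeR's quasi-likelihood test fitted to the 6 libraries of each comparison. A member is called when its p, adjusted by the Benjamini-Hochberg method over all miRNAs tested, is under 0.05. Adjusted p-values below are of this kind unless another tool is named. The SE beside an edgeR log2 fold is the size of the fold divided by the square root of the test's F statistic. For members with few counts it can be smaller than counting noise alone would give, as for miR-20b-3p.

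**Figure D1:**
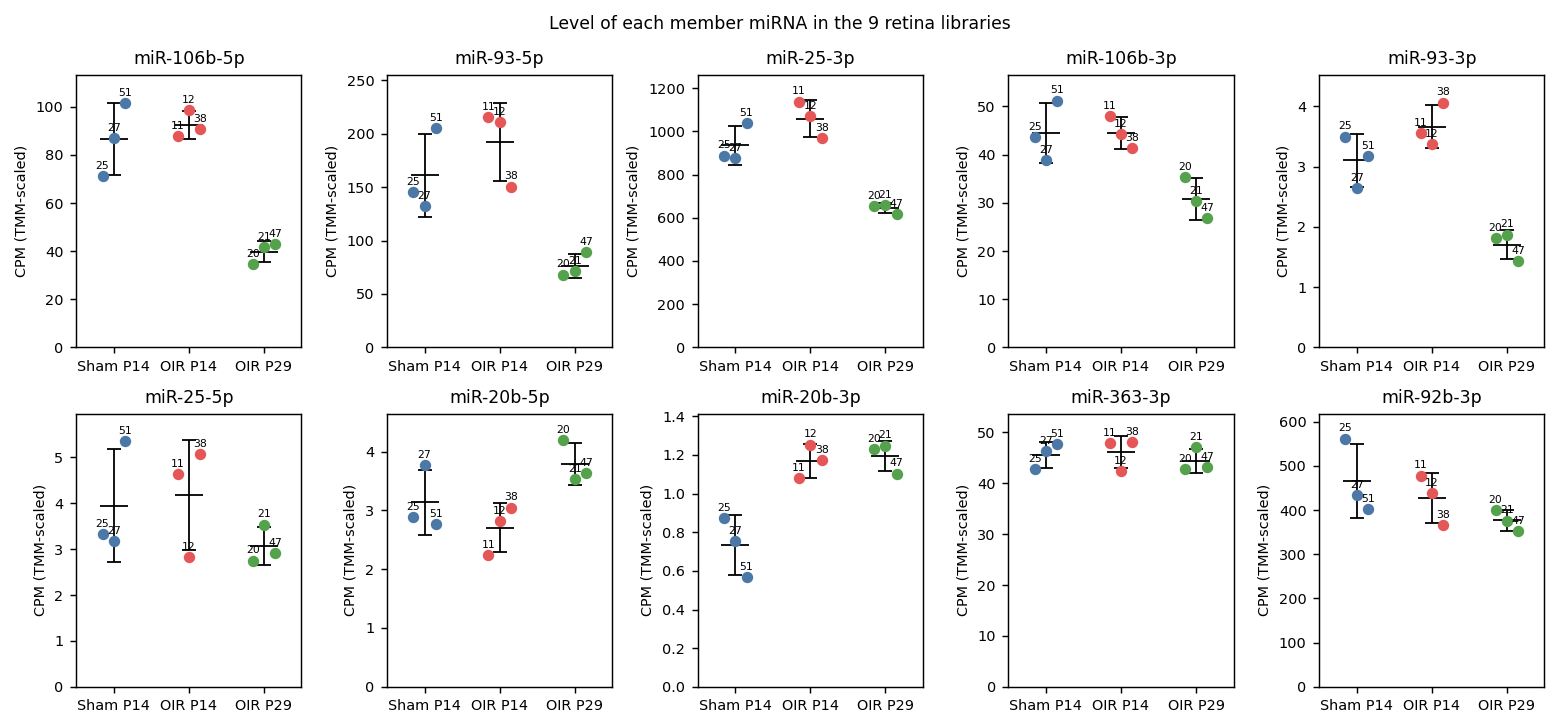
Level of each of the 10 members in CPM (vertical axes start at 0) in the libraries of sham P14, OIR P14 and OIR P29; points are libraries, labelled with their codes, and bars are the mean ± SD of 3. The 3 OIR P29 libraries lie below the 6 others for miR-106b-5p, miR-106b-3p, miR-93-5p, miR-93-3p and miR-25-3p, and overlap them for miR-363-3p.

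The members spanned a wide range of levels. miR-25-3p was the most abundant, 39th of 465 by mean level, followed by miR-92b-3p (51st), miR-93-5p (94th) and miR-106b-5p (121st). miR-363-3p and miR-106b-3p stood 142nd and 148th. The other 4 were scarce, from miR-25-5p (328th) to miR-20b-3p (410th). Within the miR-106b/25 cluster miR-25-3p gave 75.9% ± 1.71 of sham P14 counts, 75.9% ± 1.03 of those at OIR P14 and 80.9% ± 1.61 at OIR P29 (SD, n = 3 each). Levels of different miRNAs are compared here as counts, and small RNA libraries capture different sequences with different efficiency.

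Retinopathy and control at the same age were compared at P14. No member passed the test: edgeR called 0 of 10, where it called 1.69% of 415 miRNAs tested (all of them lower). Without library 27 it also called 0 of 10, and only 1 miRNA in all. limma-voom called 0 members and 2 miRNAs in all. DESeq2, which gave no adjusted p for miR-20b-3p, called 0 members and 14 miRNAs in all. With so few calls in all, 0 of 10 says little about the members. One member, miR-20b-3p, had an unadjusted edgeR p under 0.05, against 9.16% of all miRNAs. The log2 folds of the 6 miR-106b/25 members were all positive but small, from 0.02 to 0.27 with SE from 0.11 to 0.30. Their median was 0.16 beside -0.03 over all miRNAs tested. With scaling by library totals alone, the log2 folds of miR-106b-5p, miR-106b-3p and miR-25-5p turned negative (-0.07, -0.16 and -0.07), and the median over all miRNAs moved to -0.21.

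miR-93-5p, which shares its seed with miR-106b-5p, had 1661, 1752 and 2527 counts in sham P14 libraries 25, 27 and 51 and 2785, 2687 and 1926 in OIR P14 libraries 11, 12 and 38. The groups overlapped because sham library 51 was high and OIR library 38 was low. The means were 161 ± 39.0 and 192 ± 36.1 CPM (SD, n = 3 each). The log2 fold was 0.27 ± 0.20 SE (edgeR adjusted p = 0.664). It was 0.51 without library 51 and 0.42 without library 38, and was not called in either case. Library 51 was also the highest sham library for miR-106b-5p, miR-106b-3p, miR-25-3p and miR-25-5p.

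miR-25-3p had 10151, 11626 and 12788 counts in sham P14 and 14712, 13648 and 12412 in OIR P14. Scaled for library size the groups overlapped through the same libraries 51 and 38, with means of 935 ± 90.5 and 1059 ± 84.3 CPM (SD, n = 3 each). Its log2 fold was 0.20 ± 0.11 SE (edgeR adjusted p = 0.588). miR-106b-5p, with 815, 1151 and 1249 counts in sham P14 and 1136, 1260 and 1160 in OIR P14, had a log2 fold of 0.11 ± 0.15 SE (0.838).

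On the X chromosome, miR-363-3p had 489, 615 and 587 counts in sham P14 and 620, 542 and 615 in OIR P14. Its level was 45.6 ± 2.55 and 46.1 ± 3.19 CPM (SD, n = 3 each). The log2 fold was 0.04 ± 0.12 SE (edgeR adjusted p = 0.939), and with library totals alone -0.14. miR-20b-3p had 10, 10 and 7 counts in sham P14 and 14, 16 and 15 in OIR P14. Its groups did not overlap, as was so for 15.2% of all miRNAs in either direction and 3.86% in the upward direction. Its log2 fold was 0.70 ± 0.25 SE (edgeR adjusted p = 0.454), a difference of a few reads in a miRNA kept by the low-count filter through its OIR P14 libraries. The opposite arm, miR-20b-5p, had 33, 50 and 34 counts in sham P14 and 29, 36 and 39 in OIR P14, with overlapping groups and a log2 fold of -0.20 ± 0.21 SE (0.825). miR-92b-3p, at 466 ± 84.1 and 428 ± 56.8 CPM (SD, n = 3 each), had a log2 fold of -0.10 ± 0.14 SE (0.851).

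Retinas with retinopathy were compared between P14 and P29, using the same OIR P14 libraries as before. The log2 folds of all 6 miR-106b/25 members were negative, and 5 were called lower: both arms of miR-106b, both arms of miR-93 and miR-25-3p. None of the 3 X-linked members nor miR-92b-3p was called. So 5 of 10 members were called lower and 0 higher, where edgeR called 23.8% of 424 miRNAs lower, 22.9% higher and 46.7% in either direction. The groups did not overlap for 6 of 10 members, against 57.3% of all miRNAs, and the unadjusted p was under 0.05 for 6 of 10, against 55.4%. The median log2 fold was -0.93 over the 6 miR-106b/25 members, 0.01 over miR-20b-5p, miR-20b-3p and miR-363-3p, and -0.01 over all miRNAs tested. In whole retina, fewer cells of a type and less RNA per cell cannot be told apart.

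miR-93-5p fell the furthest of the members, to 941, 1026 and 1377 counts in OIR P29 libraries 20, 21 and 47. Every OIR P29 library was below every OIR P14 library, though library 47 was the highest of its group as library 38 was the lowest of its own. The mean was 76.2 ± 11.5 CPM (SD, n = 3). The log2 fold from edgeR was -1.36 ± 0.18 SE (edgeR adjusted p = 0.000969), a 2.56-fold decrease. Its opposite arm, miR-93-3p, went from 46, 43 and 52 counts to 25, 27 and 22 (log2 fold -1.13 ± 0.18 SE, 0.00216).

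miR-106b-5p fell to 479, 602 and 661 counts, again with no overlap, from 92.4 ± 5.66 to 39.8 ± 4.45 CPM (SD, n = 3 each). Its log2 fold was -1.24 ± 0.10 SE (edgeR adjusted p = 0.000107), a 2.36-fold decrease. miR-25-3p fell to 9042, 9507 and 9525 counts and 644 ± 22.4 CPM (SD, n = 3) (log2 fold -0.74 ± 0.09 SE, 0.00075). A log2 fold of -1 or lower was seen for 3 members, miR-93-5p, miR-106b-5p and miR-93-3p, and for 7.78% of all miRNAs.

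miR-106b-3p went from 620, 566 and 529 counts to 488, 437 and 412, with no overlap. Its log2 fold was -0.56 ± 0.13 SE (edgeR adjusted p = 0.00824), and this call alone among the 5 depended on the scaling. With library totals alone the log2 fold was -0.28 (edgeR adjusted p = 0.072), and with quantile normalization -0.48 (limma-voom adjusted p = 0.0538). With library totals without miR-182 it was called (-0.52, edgeR adjusted p = 0.0081). miR-25-5p, at 60, 36 and 65 counts in OIR P14 and 38, 51 and 45 in OIR P29, overlapped and was not called (log2 fold -0.47 ± 0.25 SE, edgeR adjusted p = 0.155). Without OIR P14 library 12, its lowest at that age, it was called (-0.67, edgeR adjusted p = 0.037). Without libraries 38 and 47, which stood apart, edgeR called the same 5 members, and 207 miRNAs in all.

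**Figure D2:**
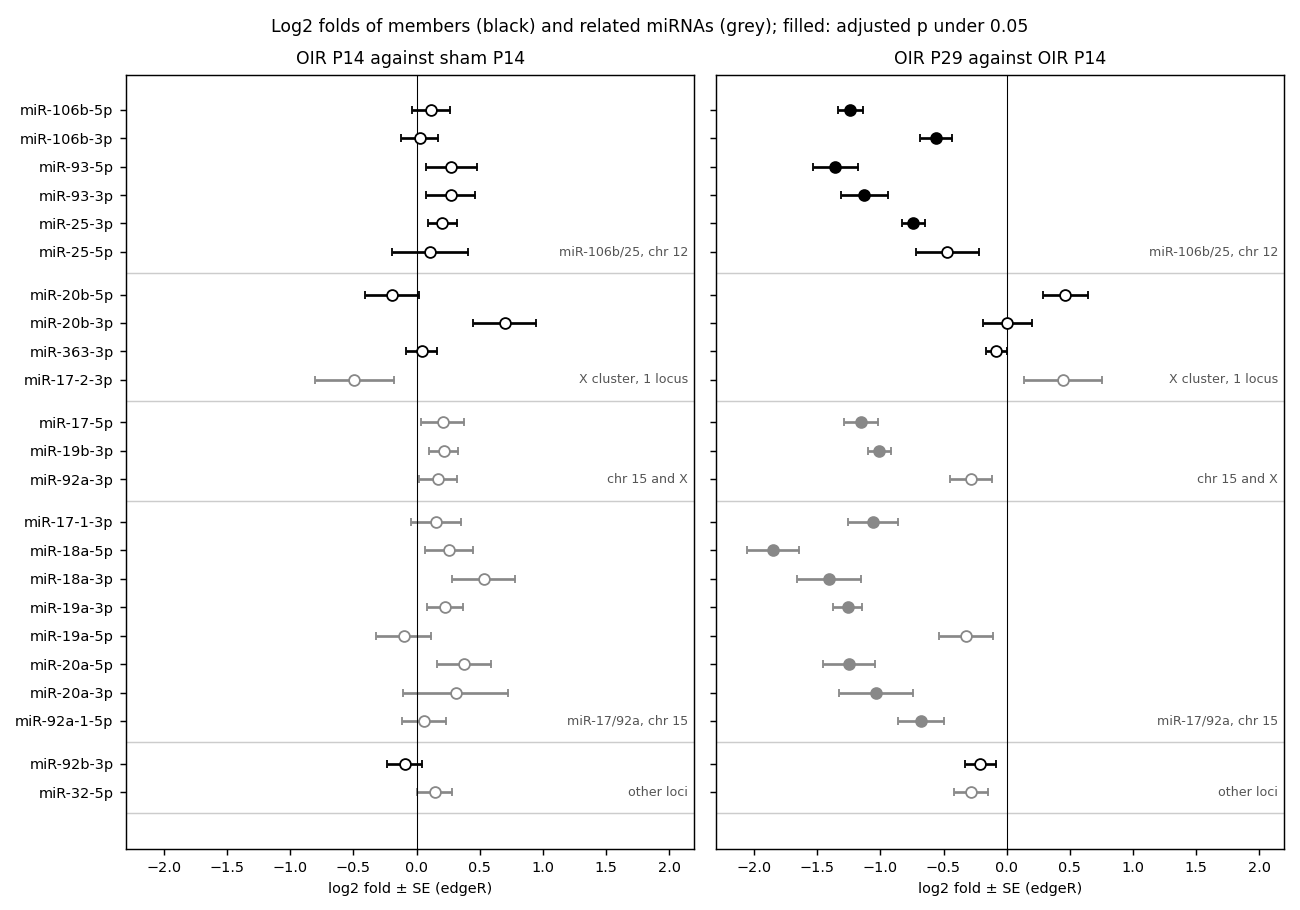
Log2 fold ± SE from edgeR (horizontal axis) of the 10 members in black and 13 related miRNAs in grey, grouped by genomic locus, for both comparisons; filled points passed adjusted p under 0.05. At P29 the chromosome 12 members lie between -1.36 and -0.47 and the X-linked members between -0.08 and 0.47.

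The X-linked members had other values at P29. miR-363-3p had 620, 542 and 615 counts in OIR P14 and 590, 679 and 666 in OIR P29, with overlapping groups at 46.1 ± 3.19 and 44.3 ± 2.38 CPM (SD, n = 3 each). The log2 fold was -0.08 ± 0.08 SE (edgeR adjusted p = 0.469), and with library totals alone it was 0.19. miR-20b-5p had 29, 36 and 39 counts and then 58, 51 and 56, with no overlap, as for 30.2% of all miRNAs in that direction. Its log2 fold of 0.47 ± 0.18 SE missed the threshold (edgeR adjusted p = 0.0689) and passed it with library totals alone (0.73, edgeR adjusted p = 0.0284). With library totals without miR-182 it was not called. miR-20b-3p, at 14, 16 and 15 counts and then 17, 18 and 17, had a log2 fold of 0.01 ± 0.19 SE (0.995). miR-92b-3p, from its own locus on chromosome 2, had 6184, 5600 and 4685 counts in OIR P14 and 5531, 5427 and 5434 in OIR P29, with overlapping groups (log2 fold -0.21 ± 0.12 SE, 0.197). Without OIR P14 library 38, its lowest at that age, it was called lower (-0.32, edgeR adjusted p = 0.0321).

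Ratios of counts within a library, which do not depend on the scaling of libraries, were used to compare members with each other. With 3 libraries against 3 the exact permutation test, 2-sided here, cannot give a p below 0.1, and over the 30 ratios and shares tested the smallest Benjamini-Hochberg adjusted value was 0.375, so none could pass 0.05. The ratio of miR-363-3p to miR-25-3p, same-seed miRNAs of different clusters, was 0.0438 ± 0.00512 at OIR P14 and 0.0689 ± 0.00322 at OIR P29 (SD, n = 3 each). It was higher in each OIR P29 library than in each OIR P14 library (log2 difference 0.66, exact permutation p = 0.1). The ratio of miR-25-3p to miR-106b-5p, made from the same transcript, was likewise higher, at 11.5 ± 1.26 and 16.4 ± 2.29 (SD, n = 3 each; log2 difference 0.51, exact permutation p = 0.1). The ratio of miR-93-5p to miR-106b-5p overlapped, at 2.08 ± 0.398 and 1.92 ± 0.194 (exact permutation p = 0.7). At P14 all 15 ratios and shares overlapped between sham and OIR libraries, with exact permutation p of 0.2 or more.

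**Figure D3:**
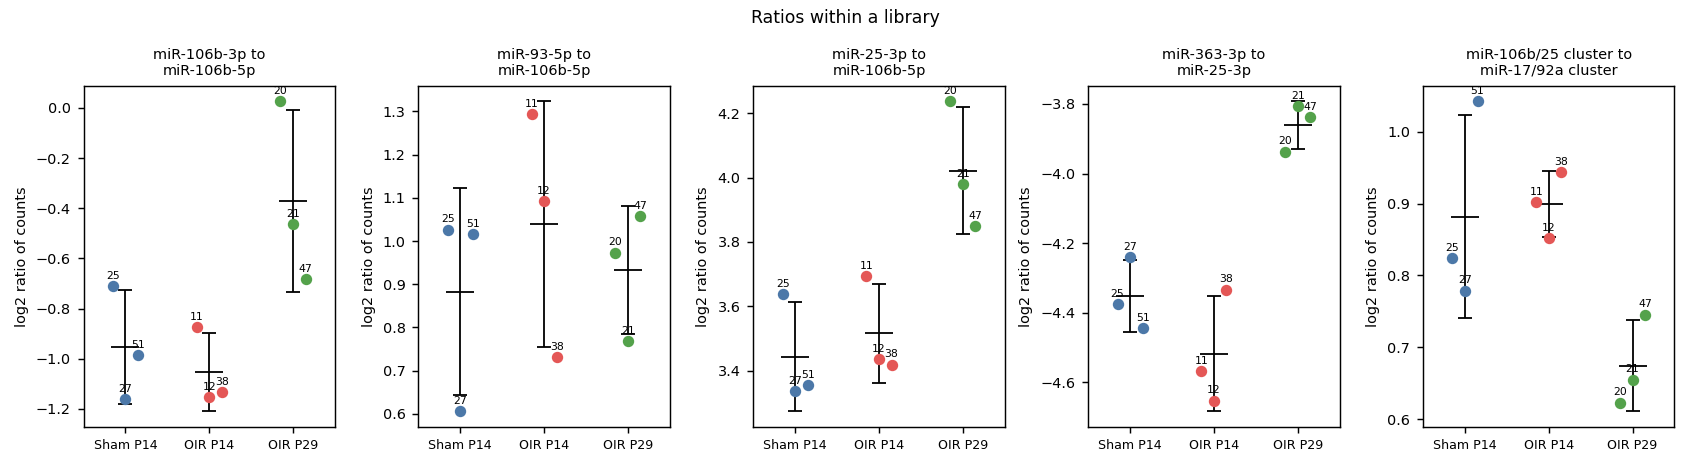
Log2 ratios of counts within each library (vertical axes, each with its own range and not starting at 0) for 5 pairs, by group; points are libraries labelled with their codes, and bars are the mean ± SD of 3. OIR P29 stands apart from OIR P14 in 4 of the 5 panels, and overlaps it for miR-93-5p to miR-106b-5p; the last panel sums 11 miR-17/92a miRNAs, and its direction reverses with the 8 of chromosome 15 alone.

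The arms of the miR-106b hairpin changed by different amounts. The 3p arm made up 34.1% ± 3.55 of the hairpin's sham P14 counts, 32.5% ± 2.40 of those at OIR P14 and 43.6% ± 6.19 at OIR P29 (SD, n = 3 each). A limma test of the log2 ratio of 3p to 5p counts, added after the values were seen, was run over 102 hairpins with both arms well counted and called 20.6% of them in either direction and 9.8% towards 3p. miR-106b was called, with a log2 difference of 0.68 ± 0.18 SE (limma adjusted p = 0.0367, 16th of 102 by p). The call rests on few libraries. It was lost without any 1 of OIR P14 libraries 11, 12 and 38 or OIR P29 libraries 20 and 21, with limma adjusted p from 0.0554 to 0.102, and held without library 47 (0.0177). OIR P29 library 20 had as many 3p as 5p reads (488 and 479), while libraries 21 and 47 lay closer to the P14 values. The 3p share of miR-93 (1.94% ± 0.595 and 2.24% ± 0.579) and of miR-25 (99.6% ± 0.129 and 99.5% ± 0.0576; SD, n = 3 each) gave limma adjusted p of 0.583 and 0.424. In OIR P14 against sham P14 the same test called 0 of 103 hairpins (0.0%), and miR-106b had a limma adjusted p of 0.834. miR-20b had too few reads for it.

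The miRNAs that share the 2 main seeds were added up to see what the clusters contribute to each family. In the miR-17 seed family (miR-17-5p, miR-20a-5p, miR-20b-5p, miR-93-5p and miR-106b-5p) the chromosome 12 members held most of the counts. miR-93-5p gave 52.8% ± 4.76, 54.4% ± 4.40 and 51.4% ± 1.83 in sham P14, OIR P14 and OIR P29, and miR-106b-5p 28.6% ± 2.17, 26.5% ± 3.11 and 26.9% ± 1.87 (SD, n = 3 each). miR-20b-5p was the smallest part, with 1.07% ± 0.308, 0.784% ± 0.203 and 2.60% ± 0.563. Its share was higher in each OIR P29 library than in each OIR P14 library (exact permutation p = 0.1), while those of miR-93-5p (0.4) and miR-106b-5p (0.9) overlapped. The whole family went from 351 ± 42.4 CPM in OIR P14 to 148 ± 20.4 CPM in OIR P29, having been 304 ± 60.9 CPM in sham P14 (SD, n = 3 each).

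In the miR-25/92 seed family (miR-25-3p, miR-92a-3p, miR-92b-3p, miR-363-3p and miR-32-5p) miR-25-3p held the largest share in each group. It gave 51.6% ± 4.25 of the sham P14 counts, 54.8% ± 1.79 at OIR P14 and 46.0% ± 1.40 at OIR P29, lower in each library at P29 than in OIR P14. miR-92b-3p gave 25.7% ± 4.13, 22.1% ± 0.536 and 26.8% ± 0.485 in the same order, and miR-363-3p 2.53% ± 0.239, 2.41% ± 0.355 and 3.17% ± 0.228 (SD, n = 3 each), both higher in each library at P29 than in OIR P14. All 3 had an exact permutation p of 0.1. The summed family was 1812 ± 108, 1935 ± 215 and 1403 ± 85.3 CPM (SD, n = 3 each) in that order.

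**Figure D4:**
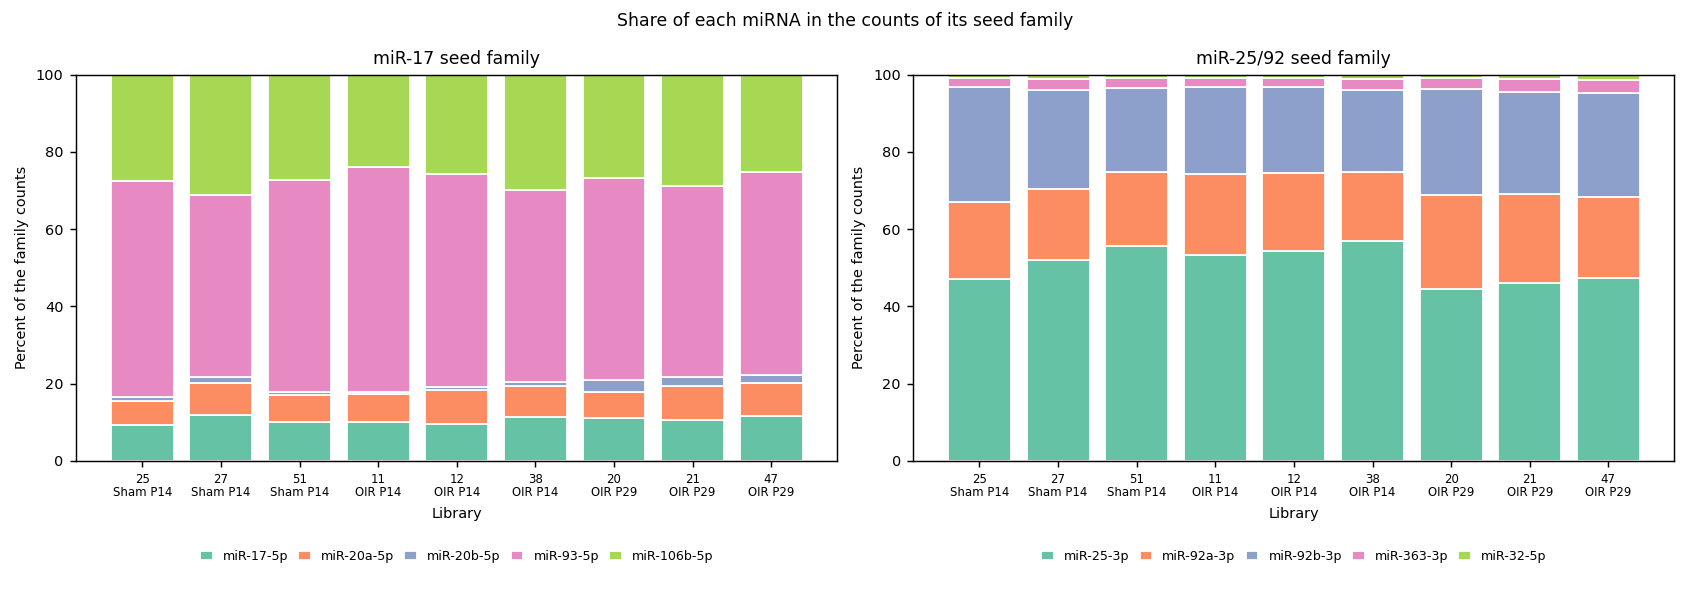
Share of each miRNA, in percent of the counts of its seed family (vertical axes), in each of the 9 libraries, labelled with code and group. miR-93-5p and miR-106b-5p fill most of the left panel in every library, and in the right panel the miR-25-3p share is 44.5% to 47.3% in OIR P29 and 53.3% to 56.8% in OIR P14.

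The related list, 12 miRNAs of the miR-17/92a cluster and its X-linked paralog and miR-32-5p, gave 9 of 13 called lower and 0 higher at P29, beside 23.8% lower and 22.9% higher over all miRNAs. Its median log2 fold was -1.03, beside -0.01 over all miRNAs. At P14 edgeR called 0 of 13, beside 1.69% of all miRNAs, and 0 of 13 had an unadjusted p under 0.05. Of the 8 made from chromosome 15 alone, 7 were called lower. The furthest was miR-18a-5p (log2 fold -1.85 ± 0.21 SE, edgeR adjusted p = 0.000509), and miR-19a-5p was not called (-0.32 ± 0.21 SE, 0.305). Of the 3 with loci on both chromosomes, miR-17-5p (-1.15 ± 0.14 SE) and miR-19b-3p (-1.01 ± 0.09 SE) were called and miR-92a-3p (-0.28 ± 0.17 SE, 0.204) was not. miR-17-2-3p, the X-linked counterpart of miR-17-1-3p, had 11, 20 and 9 counts in OIR P14 and 19, 23 and 21 in OIR P29. Its log2 fold was 0.45 ± 0.31 SE (edgeR adjusted p = 0.261), against -1.06 ± 0.20 SE for miR-17-1-3p (0.00355). Thus edgeR called 0 of the 4 miRNAs made from the X cluster alone, beside 46.7% of all miRNAs, and 1 had an unadjusted p under 0.05 and 3 of the 4 log2 folds were positive. DESeq2 and limma-voom each called 0 of the 3 members among them, where they called 184 and 191 miRNAs in all. The direction of the ratio of the summed miR-106b/25 cluster to the summed miR-17/92a cluster depended on which miRNAs were summed. With 11 miRNAs, among them the 3 that cannot be divided between chromosome 15 and X, it was 1.87 ± 0.0595 at OIR P14 and 1.60 ± 0.0709 at OIR P29 (SD, n = 3 each), lower in each library at P29 (exact permutation p = 0.1). miR-92a-3p gave 383 ± 73.4 of the 749 ± 81.4 CPM of that sum at OIR P14 and 321 ± 43.0 of 499 ± 28.4 CPM at OIR P29 (SD, n = 3 each). With the 8 miRNAs of chromosome 15 alone, a choice made after the values were seen, the ratio was 15.9 ± 1.87 and 20.6 ± 3.21 (SD, n = 3 each), higher in each library at P29 (log2 difference 0.36, exact permutation p = 0.1).

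The miRNAs most like each cluster over the 9 libraries were sought among 261 others with a mean count of at least 100. For the summed miR-106b/25 cluster they were miR-301b-3p (Pearson r = 0.988), miR-148b-3p (0.984), miR-181c-3p (0.978), miR-340-3p (0.977) and miR-340-5p (0.976). All 5 were lowest in the OIR P29 group: miR-301b-3p stood at 20.3 ± 4.12, 26.6 ± 4.13 and 5.79 ± 0.363 CPM and miR-148b-3p at 383 ± 19.7, 416 ± 21.6 and 241 ± 4.31 CPM in sham P14, OIR P14 and OIR P29 (SD, n = 3 each). These coefficients describe libraries that fall into age groups and share their scaling. The 5 were chosen by correlation with a sum that was itself lowest at OIR P29, so their low level there follows from the choice. For the summed miR-20b and miR-363 members, at 49.5 ± 2.56, 50.0 ± 3.05 and 49.3 ± 2.19 CPM (SD, n = 3 each), the highest coefficient was 0.590 (miR-361-5p).

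**Figure D5:**
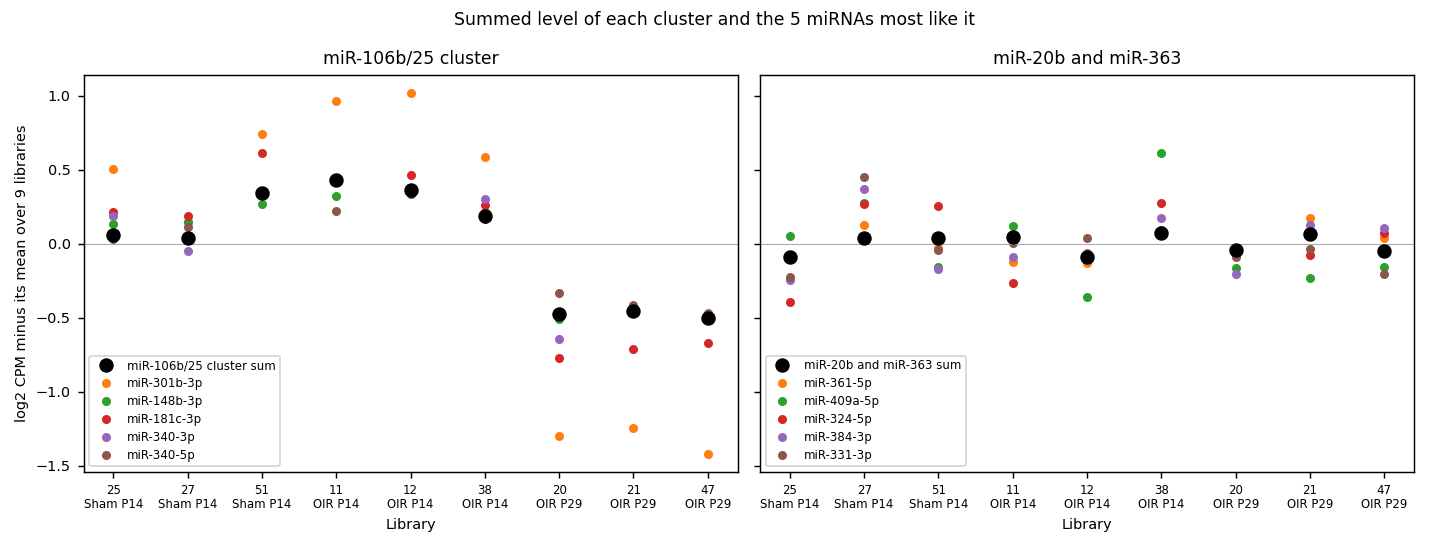
Log2 CPM minus its own mean over the 9 libraries (vertical axis) for the summed cluster in black and the 5 miRNAs with the highest Pearson r in colour, by library. In the left panel all are lower in the 3 OIR P29 libraries; in the right panel the black points stay near 0.

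The promoter of Mcm7, the host of the miR-106b/25 hairpins, is shown because 5 of those 6 members were called lower at P29, by unequal amounts. The 300 bases are the RefSeq GRCr8 window around its start on the minus strand, chr12:22163129-22163428, with matches to an E2F motif in capitals.
Mcm7: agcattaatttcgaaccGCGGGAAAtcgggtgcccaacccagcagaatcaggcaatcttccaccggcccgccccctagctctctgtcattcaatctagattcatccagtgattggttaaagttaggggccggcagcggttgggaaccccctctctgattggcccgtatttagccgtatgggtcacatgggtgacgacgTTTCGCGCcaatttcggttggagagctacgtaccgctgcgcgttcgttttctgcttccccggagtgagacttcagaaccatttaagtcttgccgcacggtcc
The motif was searched as TTTCGCGC, TTTGGCGC, TTTCCCGC or TTTGCCGC on both strands, and E2F factors are known to drive genes of DNA replication. The window held 2 matches, which do not overlap, and 2.14% of 33469 promoter windows held at least 1. The share of windows with 2 matches was not counted. The E-box letters CACGTG, on both strands, are in 6.42% of windows and not in these bases. No messenger RNA was measured in these libraries, so the level of Mcm7 itself is not known. Whether these matches have any part in the values of the members at P29 was not tested.

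Markers of other cell types moved in the same comparison. At P29, 3 of 4 red blood cell, 2 of 2 endothelial, 3 of 3 tested smooth muscle and pericyte, 1 of 4 leukocyte and 2 of 2 pigment epithelium markers were called higher, as was 1 of 3 photoreceptor markers, with the other 2 lower, and the neuronal miR-124-3p was not called. Over all miRNAs tested in that comparison, edgeR called 22.9% higher and 23.8% lower. The summed endothelial markers were 165 to 304 CPM in OIR P14 and 480 to 535 CPM in OIR P29, those of pigment epithelium 18390 to 23989 and 31153 to 35605 CPM, those of red blood cells 988 to 1023 and 1067 to 1157 CPM, and those of leukocytes 37.1 to 55.7 and 68.4 to 81.3 CPM. The summed smooth muscle and pericyte markers went from 298 to 605 CPM to 1478 to 1546 CPM, and the photoreceptor markers from 720036 to 886389 CPM to 608874 to 640745 CPM. None of the markers was at 0 in a whole group. Their part in the values of the miR-106b/25 members was not tested. At P14, where no member was called, edgeR called 1 of 2 tested red blood cell, 2 of 2 endothelial, 2 of 3 smooth muscle and pericyte and 1 of 3 leukocyte markers lower. Over all miRNAs tested at P14 it called 1.69%, all of them lower.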

How the data were processed

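Small RNA from dissected rat retinas was read by sequencing 50 bp from 1 end, per the labels' protocols. The authors deposited 2 tables of read counts for the same 465 mature miRNAs, with a log2 fold and a false discovery rate (an adjusted p-value) per miRNA, per the file headers. Per the submitters' processing notes, limma was used, with no version stated. The sources used here name no trimming, aligner, counter, build or annotation. Columns carry library codes only. Codes in both tables (11, 12 and 38, with 1395 of 1395 identical counts) were taken as OIR P14, and the other 3 of each table as the other condition in its header, not from replicate labels.

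Counts were tested with edgeR 4.0.16 in R 4.3.3 (TMM, filterByExpr with a minimum count of 10 and total of 15), which tested 415 and 424 miRNAs, 10 members in each. Arm ratios used limma 3.58.1 with 0.5 added to each count and at least 20 mean counts per arm, and ratios an exact permutation test in SciPy 1.17.1. DESeq2 1.42.0, other scalings, no filter, the 9 libraries together, the authors' deposited values and each library left out were the alternatives. The fits were tested on simulated data, in which all miRNAs had the same spread between replicates, unlike real libraries. edgeR recovered 67.1% (P14) and 54.2% (P29) of simulated 1.5-fold changes, so changes of that size can be missed. It recovered 93.9% and 89.6% of 2-fold changes. Of its calls 3.68% and 2.49% were false. All members, the related list and the 5 most alike miRNAs of each cluster are named. Members and lists were chosen with earlier results of these data known.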

Additional observations from a re-analysis of the deposited data

How the results depend on the processing

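No paired analysis was possible because the count columns carry library codes and not the replicate numbers of the labels. The number of members called was 0 at P14 under 15 alternatives and 4 to 6 at P29, where the main count was 5. Over all miRNAs these alternatives called 1 to 14 at P14, where the main count was 7. At P29 they called 170 to 207, where the main count was 198. miR-93-5p, miR-93-3p, miR-106b-5p and miR-25-3p were called lower at P29 under 15 of 15 alternatives, with log2 folds from -1.65 to -1.07, -1.16 to -0.86, -1.33 to -0.97 and -0.88 to -0.46. With library totals alone the median over all miRNAs went, on the log2 scale, from -0.03 to -0.21 at P14 and from -0.01 to 0.25 at P29, where calls over all miRNAs went from 97 higher and 101 lower to 148 and 53.

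Uncalled log2 folds near 0 changed sign in these cases. At P14, totals alone gave miR-106b-3p -0.16, miR-106b-5p -0.065, miR-25-5p -0.069 and miR-363-3p -0.14, totals without miR-182 gave miR-106b-3p -0.026 and miR-363-3p -0.0081, quantile normalization gave miR-92b-3p 0.10, and leaving out libraries 38 and 47, chosen after seeing the data, gave miR-25-5p -0.064. At P29, quantile normalization gave miR-20b-3p -0.092 and miR-363-3p 0.048, and totals alone gave miR-363-3p 0.19 and miR-92b-3p 0.072. With the chromosome 15 miRNAs alone in the miR-17/92a sum, chosen after seeing the data, the log2 ratio of miR-106b/25 to miR-17/92a turned from 0.017 to -0.053 at P14 and from -0.22 to 0.36 at P29. These 8 miRNAs summed to 88.0 CPM at OIR P14 and 39.3 CPM at OIR P29, beside 749 and 499 CPM for all 11. The cause of the sign changes of the log2 folds was not tested.

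Leaving out 1 library at a time, the P14 log2 folds ran from -0.074 to 0.16 for miR-106b-3p, -0.0045 to 0.27 for miR-106b-5p, -0.064 to 0.41 for miR-25-5p, -0.0035 to 0.12 for miR-363-3p and -0.19 to 0.051 for miR-92b-3p. Log2 ratios at P14 ran from -0.20 to 0.020 for the miR-106b arms (the same by limma), -0.27 to 0.13 for the miR-93 arms, -0.16 to 0.33 for the miR-25 arms, -0.034 to 0.10 for miR-106b/25 to miR-17/92a and -0.015 to 0.17 for miR-25-3p to miR-106b-5p. At P29 miR-93-5p to miR-106b-5p ran from -0.26 to 0.022. Differences in share of the miR-17 seed family, in percentage points, ran from -0.62 to 0.64 (miR-17-5p) and -1.12 to 3.97 (miR-93-5p) at P14, and from -0.42 to 0.74 (miR-20a-5p) and -0.94 to 2.11 (miR-106b-5p) at P29. In the miR-25/92 seed family at P14 they ran from -0.056 to 0.099 (miR-32-5p), -0.32 to 0.0040 (miR-363-3p) and -0.17 to 1.45 (miR-92a-3p). Depth limits the members under 100 counts (miR-20b-5p, miR-20b-3p, miR-25-5p and miR-93-3p), whose SE at P29 ran from 0.18 to 0.25. miR-93-5p, with 941 or more counts in each library, also had an SE of 0.18. These SEs come from the F statistic and can be too small for scarce members, so they do not measure how far depth limits each member. The remaining members had SEs from 0.08 to 0.13. Intervals and SEs do not cover biases of library preparation.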
